A study of Homo sapiens with 9 samples.

Results

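In all, 10 genes of fibroblast growth factor (FGF) signalling were followed by name through 9 RNA libraries: the receptors FGFR1, FGFR2, FGFR3 and FGFR4, the feedback inhibitors SPRY1, SPRY2, SPRY4 and DUSP6, and the ETS transcription factors ETV4 and ETV5. They are 10 of 46427 genes in the deposited table, and all 10 passed the filter on low counts that left 20685 genes for testing. The cells were H9, an established line of human embryonic stem cells (hESC), and neural progenitor cells (NPC) made from it. The 3 groups of 3 libraries were undifferentiated, untreated hESC, untreated NPC at day 11 of differentiation (control NPC) and day 11 NPC exposed to bafilomycin A1 (BafA1 NPC). Bafilomycin A1 blocks the proton pump of lysosomes and thereby the last step of autophagy, and was given at 10 nM for 6 h. The labels list several day windows for that exposure and do not say which one the sequenced cells had. Both NPC groups went through the same induction towards midbrain dopamine neurons, with LDN193189 (200 nM) and SB431542 (10 µM) against BMP and TGF-beta receptors, purmorphamine (2 µM) for Hedgehog signalling and CHIR99021 (3 µM) for WNT signalling. No FGF or FGF receptor inhibitor is among the agents named. All libraries come from 1 cell line, and although the labels call them biological replicates, they do not say which were grown or sequenced together. P-values therefore measure the spread between these libraries, which may in part be technical.

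FGFs are secreted factors that bind tyrosine kinase receptors together with heparan sulfate. The receptors act through RAS, RAF and MEK on the kinases ERK1 and ERK2, which raise transcription of several of their own inhibitors. Sprouty proteins (SPRY1, SPRY2, SPRY4) restrain the pathway upstream of RAF, and DUSP6 removes the activating phosphates from ERK. ETV4 and ETV5 are transcription factors of the PEA3 group whose own transcription follows FGF and ERK signalling, so that the inhibitors and the ETV genes are often read as output of the pathway. FGF2 sustains undifferentiated human embryonic stem cells in culture, and in the embryo FGF8 from the border of midbrain and hindbrain patterns midbrain progenitors.

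The table of RefSeq promoters (GRCh38.p14) held 7 of the 10 genes. Shown are the receptors that moved most in opposite directions upon differentiation, FGFR3 and FGFR4, and the Sprouty genes that moved in opposite directions with BafA1, SPRY2 and SPRY4. Each sequence starts 250 bases before the first listed start site and runs to that site or to the first annotated exon (GENCODE v29). The start site listed for SPRY4 lies inside the locus given for that gene further on, downstream of its 5′ end. Capitals mark GGAAG or its reverse complement CTTCC, a form of the GGAA core bound by ETS factors. Other forms of that core were not marked.
FGFR3, chr4:1793043-1793292, plus strand: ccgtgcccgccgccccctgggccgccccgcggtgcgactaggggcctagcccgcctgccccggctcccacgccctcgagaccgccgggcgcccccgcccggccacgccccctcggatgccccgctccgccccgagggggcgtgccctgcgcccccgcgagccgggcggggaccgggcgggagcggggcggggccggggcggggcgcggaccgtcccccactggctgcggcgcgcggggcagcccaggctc
FGFR4, chr5:177086665-177086885, plus strand: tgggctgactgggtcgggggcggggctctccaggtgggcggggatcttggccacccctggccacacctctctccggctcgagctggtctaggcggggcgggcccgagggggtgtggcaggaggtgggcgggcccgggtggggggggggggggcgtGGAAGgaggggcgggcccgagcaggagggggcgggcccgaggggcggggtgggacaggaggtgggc
SPRY2, chr13:80341127-80341376, minus strand: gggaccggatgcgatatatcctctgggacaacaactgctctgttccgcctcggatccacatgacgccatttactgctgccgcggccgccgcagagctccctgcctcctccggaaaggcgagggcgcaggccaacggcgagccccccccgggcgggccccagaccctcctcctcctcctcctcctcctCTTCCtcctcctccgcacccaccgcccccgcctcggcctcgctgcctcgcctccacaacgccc
SPRY4, chr5:142324418-142324497, minus strand: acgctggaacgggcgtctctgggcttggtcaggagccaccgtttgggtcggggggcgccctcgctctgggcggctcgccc
In the whole 250-base windows GGAAG was found 1 time each in FGFR4 and SPRY2 and 0 times in FGFR3 and SPRY4, counting both strands and overlapping matches. Of all 35116 promoter windows of that length 65.1% held it. The longer ETS motif CCGGAA was found 1 time in SPRY2 and in 14.5% of all windows. The GC box GGGCGG was found 8 times in FGFR3, 7 times in FGFR4, 2 times in SPRY2 and 1 time in SPRY4, against 42.6% of all windows with at least 1 match. GC content was 86.8% in the FGFR3 window, 79.6% in FGFR4, 70.4% in SPRY2 and 65.6% in SPRY4, with a median of 58.0% over all windows. A match is a match of letters and not an observed binding site.

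Library totals were 43124679 to 69703791 counts. Over all genes but these 10, the first principal component (79.2% of variance) set hESC apart from NPC and on the second (9.88%) control NPC lay at -67.5 to -38.6 and BafA1 NPC at 41.0 to 60.6. The pluripotency factors POU5F1, TDGF1 and PRDM14 had no count in control NPC, and the 8 neural progenitor markers rose from a sum of 605 to 657 CPM in hESC to 5820 to 6653 CPM in control NPC. VIM made up most of the control NPC sum, at 4750 to 5635 CPM, while PAX6 and HES5 reached at most 0.490 and 0.686 CPM there. Within a gene, levels are given as CPM, counts scaled by edgeR's TMM method, in which changes are measured against the bulk of all genes. Between genes, levels are given as FPKM, which accounts for transcript length. In bulk RNA, fewer cells that express a gene and less RNA of it per cell cannot be told apart.

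Differentiation to day 11 lowered most of the 10 genes. In control NPC against hESC 8 fell, 1 rose (FGFR3) and 1 was not called (FGFR2), where 64.5% of all genes tested were called, 33.0% higher and 31.6% lower. Their median log2 change was -1.58, against 0.03 over all genes. With BafA1 they moved in both directions. In BafA1 NPC against control NPC 4 rose (FGFR2, FGFR3, FGFR4 and SPRY2), 2 fell (SPRY4 and ETV4) and 4 were not called (FGFR1, SPRY1, DUSP6 and ETV5). That is 6 of 10 where 41.5% of all genes were called, 20.8% higher and 20.7% lower, and the median of the 10 was 0.23 against 0.0 over all genes. Both comparisons use the control NPC libraries. The 3 libraries of each group did not overlap in 9 of the 10 genes in the first comparison and in 5 in the second, against 72.8% and 49.2% of all genes.

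**Figure D1:**
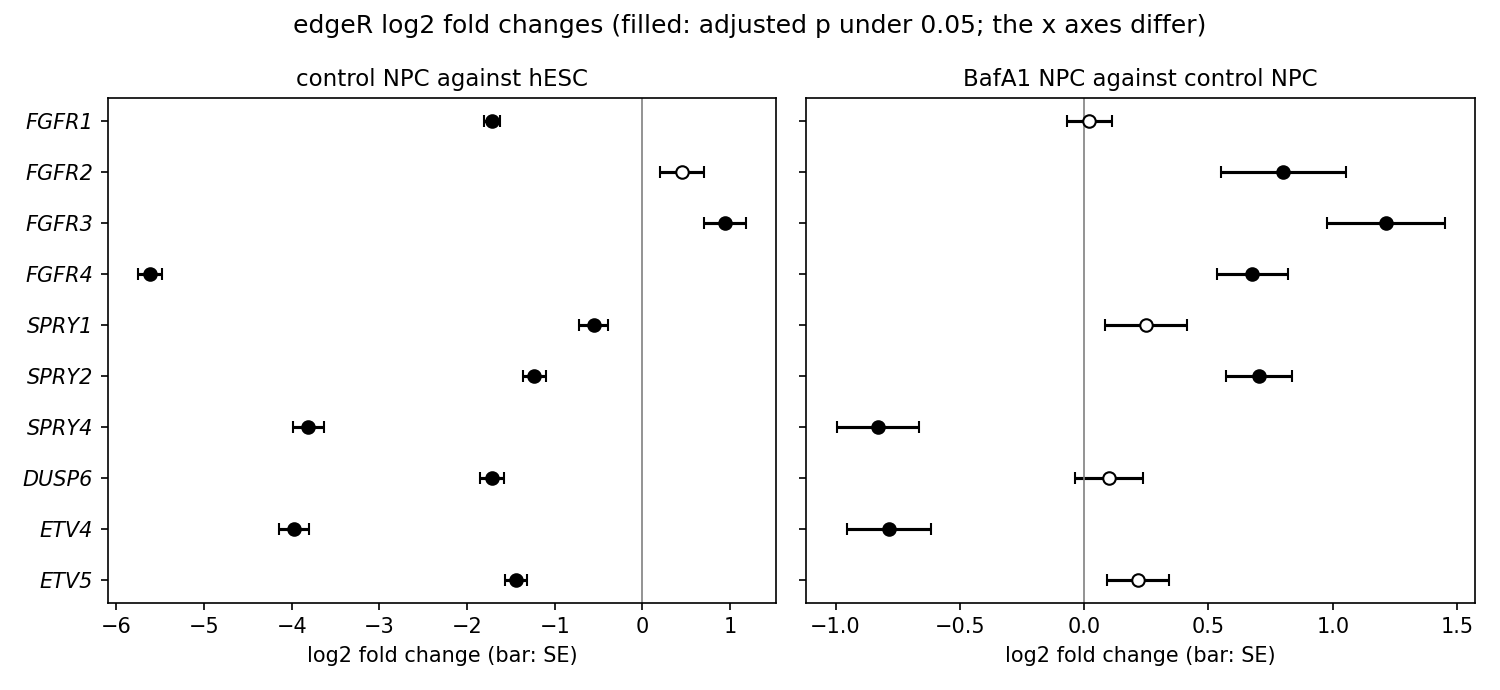
Log2 fold change (x axis, edgeR) of each of the 10 genes in control NPC against hESC (left) and in BafA1 NPC against control NPC (right), with bars for the SE and filled points for an adjusted p under 0.05. The left panel runs from -5.61 for FGFR4 to 0.94 for FGFR3, and the right panel from -0.83 for SPRY4 to 1.21 for FGFR3, on an axis of smaller range.

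Among the receptors, FGFR1 was the most abundant of the 10 genes in every group by mean FPKM. It lies on chromosome 8 (38411143 to 38468635, RefSeq GRCh38.p14, as for the other genes) and encodes a main receptor for FGF2. The hESC libraries had 739, 691 and 731 CPM, the control libraries 233, 225 and 199.5 CPM and the BafA1 libraries 234, 214 and 220.2 CPM. The hESC libraries all lay above the NPC libraries, while the NPC groups overlapped. FGFR1 fell by 1.72 ± 0.09 (SE) on the log2 scale upon differentiation (3.28-fold, edgeR adjusted p = 1.26e-08), and its change with BafA1 was 0.02 ± 0.09 (adjusted p = 0.875). The sign of that small value depended on the scaling: it was -0.10 under library size alone, and no alternative called it.

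FGFR4 (chromosome 5, 177086915 to 177098144) was the gene of the 10 that fell most. It had 83.4, 71.8 and 83.8 CPM in hESC, 1.46, 1.504 and 1.90 CPM in the control NPC and 2.28, 2.85 and 2.69 CPM in BafA1 NPC. The groups did not overlap, with hESC far above both NPC groups and BafA1 NPC slightly above control NPC. The fall upon differentiation was 48.99-fold (log2 change -5.61 ± 0.14 SE, edgeR adjusted p = 3.43e-11). With BafA1 FGFR4 rose by 0.68 ± 0.14 (adjusted p = 0.00279), to a level that remained 30.7-fold under that of hESC. Removal of GC and length trends brought that rise to 0.36 (adjusted p = 0.0465), and limma on log2(FPKM + 1) ended the call (0.19, adjusted p = 0.11). Over 20 alternatives its adjusted p ranged from 1.56e-04 to 0.153.

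FGFR3 (chromosome 4, 1793293 to 1808867) moved the opposite way, higher in control NPC than in hESC and higher in BafA1 NPC than in control NPC. Its libraries had 16.4, 14.8 and 16.1 CPM in hESC, 19.4, 25.0 and 46.5 CPM in the control NPC and 65.1, 74.6 and 71.2 CPM in BafA1 NPC. No group overlapped another, and control replicate 3 lay well above the other control libraries. FGFR3 rose by 0.94 ± 0.24 (SE) upon differentiation (edgeR adjusted p = 0.00448) and by 1.21 ± 0.24 with BafA1 (2.32-fold, adjusted p = 0.00185). Without control replicate 3 the first rise was 0.50 (adjusted p = 0.00351), and with GC and length trends removed it was 1.49 (adjusted p = 2.62e-04). It was not called with limma on log2(FPKM + 1) without a filter (adjusted p = 0.0763), the highest of its 20 alternatives. The rise with BafA1 was called under all 20 alternatives, with log2 changes of 0.97 to 1.66.

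FGFR2 (chromosome 10, 121478330 to 121598458) had 63.9, 65.5 and 57.1 CPM in hESC, 61.6, 65.8 and 126.9 CPM in the control NPC and 194, 124 and 125 CPM in BafA1 NPC. Control replicates 1 and 2 were at the level of hESC, control replicate 3 was at the level of BafA1 replicates 2 and 3, and BafA1 replicate 1 was highest. The change upon differentiation was 0.45 ± 0.25 (SE, edgeR adjusted p = 0.137); it was called without control replicate 1 (0.63, adjusted p = 0.0464) and was 0.04 without control replicate 3 (adjusted p = 0.866). With BafA1 FGFR2 rose by 0.80 ± 0.25 (1.74-fold, adjusted p = 0.0232), although the groups overlapped. This call held under 12 of 20 alternatives. It was lost under library size alone (adjusted p = 0.0577), with DESeq2 (0.0538), with limma on log2(FPKM + 1) (0.0552) and without control replicate 1 (0.0882), control replicate 2 (0.0938) or BafA1 replicate 1 (0.0968). Without control replicate 3 the change was 1.21 (adjusted p = 4.58e-04), and over all alternatives the adjusted p reached 0.272. The libraries in which FGFR2 was highest in their group, control replicate 3 and BafA1 replicate 1, were also highest in 6 and 7 of the 8 midbrain floor plate markers and lowest in the others (EN1 and MSX1 in control NPC, EN1 in BafA1 NPC). Examples were OTX2 (101, 92.7 and 172 CPM in control NPC; 196, 114 and 126 CPM in BafA1 NPC) and LMX1A (68.2, 66.1 and 97.7 CPM; 102, 67.1 and 54.5 CPM), while EN1 was at 6.26, 5.59 and 2.99 CPM and at 2.49, 2.88 and 3.66 CPM. These 2 libraries were also the highest or lowest of their group in 10 and 9 of the 10 genes, and control replicate 1 was so in 9. In any gene 2 of the 3 libraries of a group are the highest or lowest, so such counts are high by construction. FGFR3 was highest in control replicate 3 but lowest in BafA1 replicate 1. The share of all genes that were highest or lowest in these libraries was not counted, so the tallies of markers and genes have no background to be read against. The part of these markers in the FGFR2 values was not tested.

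Per transcript length, the make-up of receptor messenger RNA shifted away from FGFR1. In hESC FGFR1 made up 74.6 ± 0.310% of the summed FPKM of the 4 receptors, FGFR4 15.1 ± 0.726%, FGFR2 8.18 ± 0.868% and FGFR3 2.12 ± 0.0943% (SD, n = 3). In control NPC the shares were 60.8 ± 12.1% for FGFR1, 28.1 ± 8.74% for FGFR2, 10.3 ± 3.48% for FGFR3 and 0.792 ± 0.0165% for FGFR4. In BafA1 NPC they were 44.4 ± 2.73%, 36.3 ± 5.74%, 18.3 ± 2.89% and 0.951 ± 0.193% in the same order. Control replicate 3 had 46.9% FGFR1 and 38.2% FGFR2 and was near BafA1 replicates 2 and 3 (45.5% and 46.5% FGFR1), while control replicates 1 and 2 had 69.2% and 66.2% FGFR1. The summed receptor FPKM was 149 ± 7.12 in hESC, 59.5 ± 6.88 in the control NPC and 73.2 ± 9.96 in BafA1 NPC, with the NPC groups overlapping. Summed as CPM the receptors did not overlap, at 316 to 375 for the control libraries and 416 to 495 for those with BafA1. Shares of counts, which weight long transcripts more, put FGFR1 at 82.0% in hESC, 66.0% in the control NPC and 50.4% in BafA1 NPC.

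**Figure D2:**
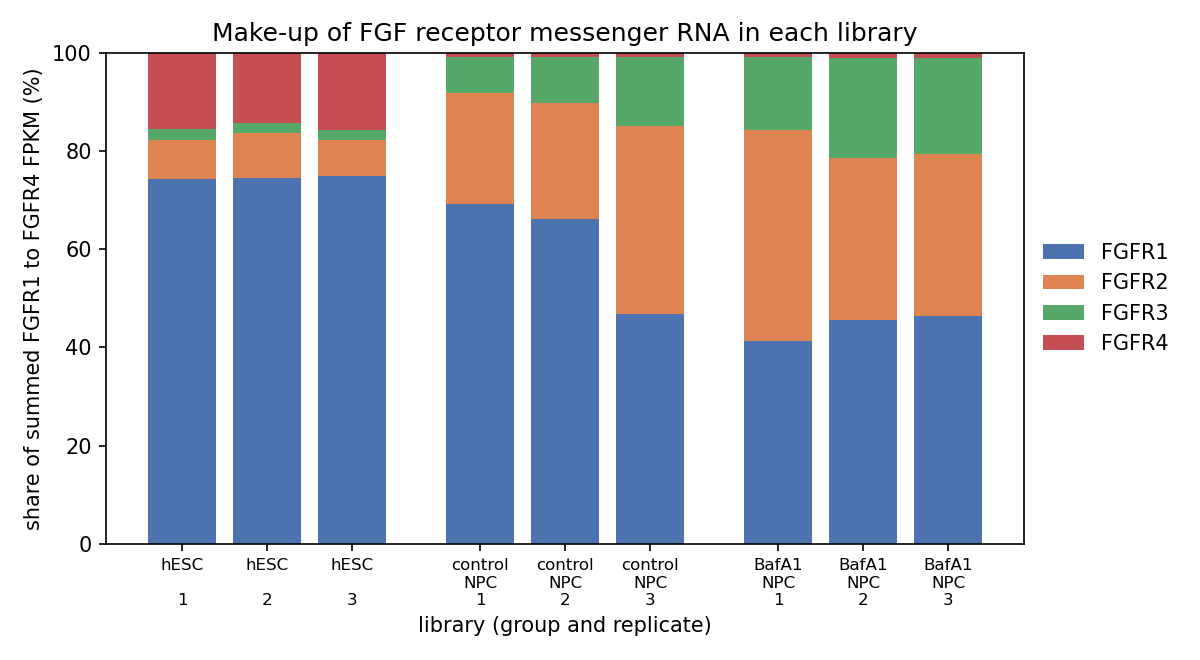
Share of each receptor in the summed FPKM of FGFR1 to FGFR4 (y axis, percent), as 1 stacked bar per library. The FGFR4 share is 14.3 to 15.6% in hESC and at most 1.09% in NPC, and control replicate 3 (46.9% FGFR1) lies nearer to the BafA1 NPC bars than to the other control bars.

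The inhibitors fell together upon differentiation and parted with BafA1. SPRY4 (chromosome 5, 142310430 to 142325021) had 269.5, 289 and 296 CPM in hESC, 24.8, 21.7 and 14.3 CPM in the control NPC and 10.2, 12.7 and 11.4 CPM in BafA1 NPC. Control NPC lay below hESC and BafA1 NPC below control NPC, with no overlap. Control replicate 3 was the lowest control library, nearest to BafA1 NPC (14.3 against at most 12.7 CPM). SPRY4 fell by 3.81 ± 0.18 (SE) on the log2 scale upon differentiation (14.1-fold, edgeR adjusted p = 3.82e-09). In BafA1 NPC it was lower than in control NPC by 0.83 ± 0.17 (1.78-fold, edgeR adjusted p = 0.00215). That call was made under all 20 alternatives.

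SPRY2 (chromosome 13, 80335976 to 80341126) had 50.3, 46.6 and 52.7 CPM in hESC, 21.8, 21.9 and 19.98 CPM in the control NPC and 28.0, 33.2 and 42.4 CPM in BafA1 NPC. The BafA1 libraries lay between the other groups without touching either. SPRY2 fell by 1.23 ± 0.13 (SE) upon differentiation (edgeR adjusted p = 5.24e-06) and rose by 0.70 ± 0.13 with BafA1 (1.63-fold, adjusted p = 0.00135). The rise was called under 19 of 20 alternatives; the exception was limma on log2(FPKM + 1) without a filter (0.46, adjusted p = 0.142), where the adjusted p was highest.

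SPRY1 (chromosome 4, 123396795 to 123403760) had 24.0, 24.0 and 24.4 CPM in hESC, 20.8, 16.4 and 12.02 CPM in the control NPC and 19.7, 17.0 and 21.7 CPM in BafA1 NPC. It was the feedback gene that changed least upon differentiation, by -0.56 ± 0.16 (SE, edgeR adjusted p = 0.0106), and the call was lost with limma on log2(FPKM + 1) (adjusted p = 0.051; 9.65e-04 to 0.209 over the alternatives). Its change with BafA1 was 0.25 ± 0.17 (adjusted p = 0.249), called only without control replicate 1 (0.45, adjusted p = 0.0348). The NPC groups overlapped, with control replicate 3 lowest.

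DUSP6 (chromosome 12, 89347235 to 89352501) encodes the phosphatase specific for ERK. It had 388, 367 and 427 CPM in hESC, 133, 124 and 103 CPM in the control NPC and 106, 127 and 153 CPM in BafA1 NPC. The hESC libraries stood apart and the NPC groups overlapped. DUSP6 fell by 1.72 ± 0.14 (SE) upon differentiation (3.28-fold, edgeR adjusted p = 4.92e-07), and its change with BafA1 was 0.10 ± 0.14 (adjusted p = 0.584; 0.173 to 1 over the alternatives, with a sign that was negative under library size alone).

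ETV4 (chromosome 17, 43527846 to 43546340) followed SPRY4 closely. It had 166, 154 and 159 CPM in hESC, 12.7, 10.6 and 7.27 CPM in the control NPC and 5.13, 6.34 and 6.24 CPM in BafA1 NPC. The groups again did not overlap, and control replicate 3 was the lowest control library, nearest to BafA1 NPC. ETV4 fell by 3.97 ± 0.17 (SE) on the log2 scale upon differentiation (15.7-fold, edgeR adjusted p = 2.23e-09). In BafA1 NPC it was lower than in control NPC by 0.78 ± 0.17 (1.72-fold, edgeR adjusted p = 0.00317). The difference with BafA1 was called under all 20 alternatives, at -0.98 to -0.60.

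ETV5 (chromosome 3, 186046314 to 186109089) had 76.9, 79.3 and 81.7 CPM in hESC, 34.2, 28.7 and 24.6 CPM in the control NPC and 30.03, 32.9 and 38.6 CPM in BafA1 NPC. It fell by 1.44 ± 0.12 (SE) upon differentiation (2.72-fold, edgeR adjusted p = 8.22e-07), less than ETV4 in the estimate. With BafA1 its change was 0.22 ± 0.12 (adjusted p = 0.181), called only without control replicate 1 (0.35, adjusted p = 0.0431; up to 1 over the alternatives). The NPC groups overlapped.

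**Figure D3:**
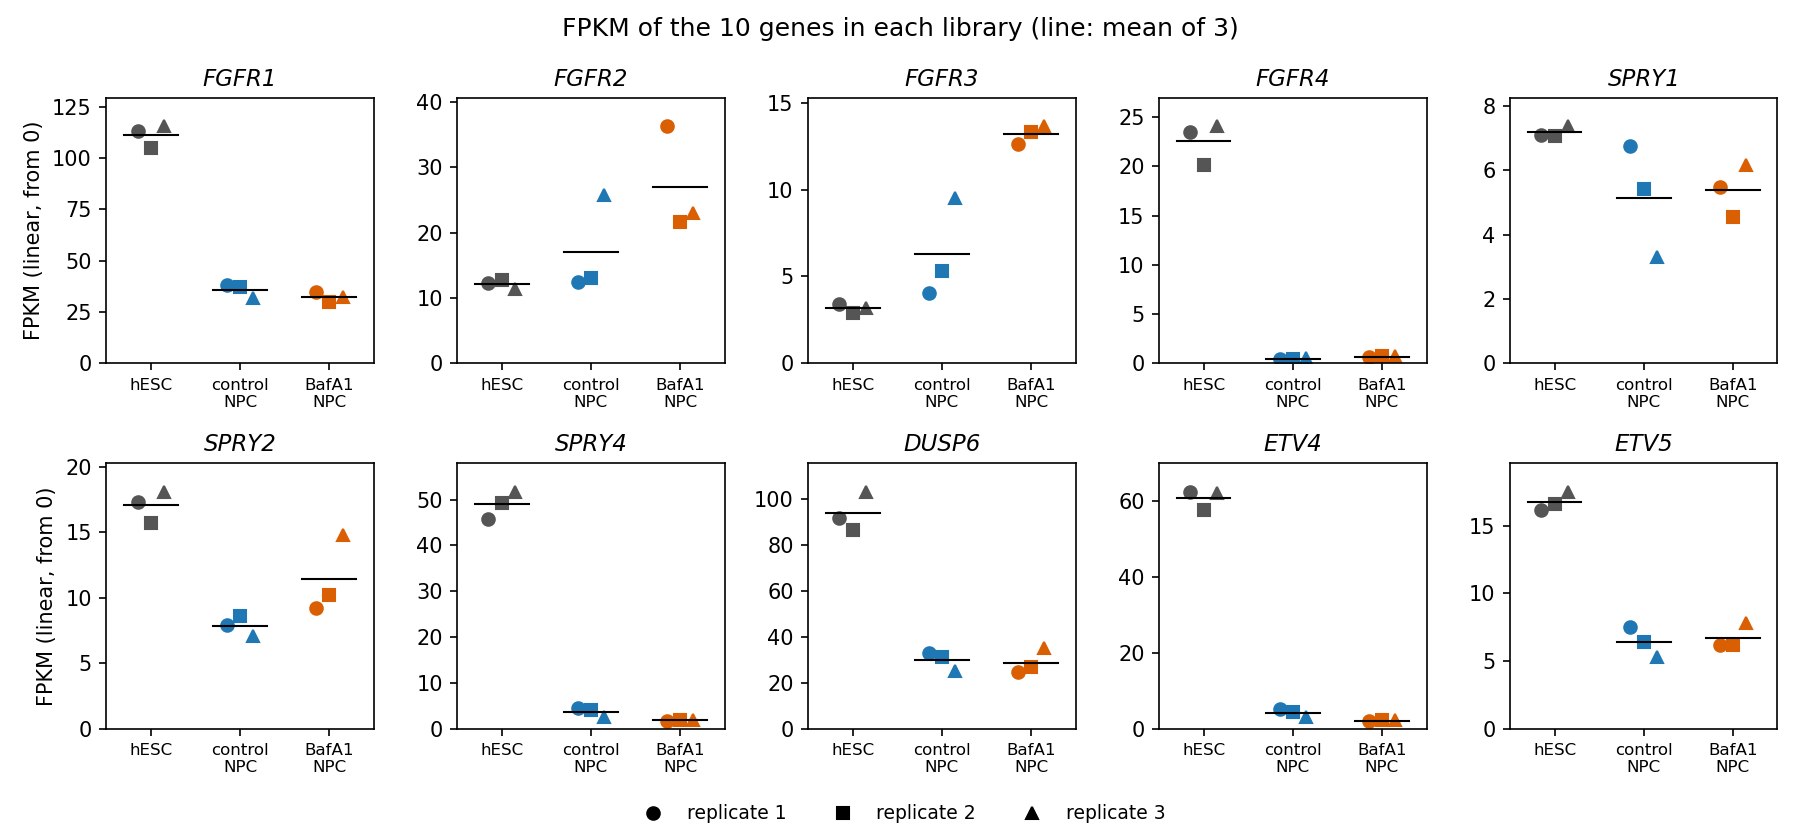
FPKM (y axis, linear from 0, own scale per gene) of the 10 genes in each of the 9 libraries, with the group mean of 3 as a line. SPRY4 and ETV4 are highest in hESC and lowest in BafA1 NPC, and FGFR3 is lowest in hESC and highest in BafA1 NPC. Control replicate 3 (triangle) lies well above the other control libraries in FGFR2 and FGFR3 and below them in SPRY4 and ETV4.

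Members of a family were also set against each other within each library. The ratios that follow were chosen after the values had been seen. The FPKM ratio of SPRY2 to SPRY4 was 0.378, 0.319 and 0.350 in hESC, 1.77, 2.15 and 2.81 in the control NPC and 5.39, 5.37 and 7.70 in BafA1 NPC. The ratio of ETV5 to ETV4 was 0.259, 0.288 and 0.282, then 1.45, 1.48 and 1.83, then 3.31, 2.86 and 3.51. In both pairs the gene that was lower in hESC was the higher one in all 6 NPC libraries, and no group overlapped another. Between BafA1 NPC and control NPC the ratios differed 2.75-fold for SPRY2 to SPRY4 and 2.04-fold for ETV5 to ETV4, each with an exact two-sided permutation p = 0.1, the smallest that 3 against 3 libraries allow. For SPRY2 to SPRY4 that p was fixed by the choice of genes, since SPRY2 was higher and SPRY4 lower with BafA1 without overlap. For ETV5 to ETV4 it was fixed as well. ETV4 was lower without overlap, and any pairing of the values seen would have kept the ratios of the groups apart. The p adds no support in either case. A ratio within a library does not depend on how libraries are scaled to each other.

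The ratio of FGFR3 to FGFR1 was 0.0300, 0.0278 and 0.0275 in hESC, 0.106, 0.143 and 0.302 in the control NPC and 0.362, 0.446 and 0.421 in BafA1 NPC. The BafA1 values were 2.46-fold higher than the control values without overlap (exact permutation p = 0.1). That p was also fixed by the choice of genes. FGFR3 was higher with BafA1 without overlap, and any pairing with the FGFR1 values seen would have kept the groups apart. It restates the FGFR3 result and adds no support. For FGFR2 to FGFR1 the BafA1 values were 1.78-fold higher with overlap (exact permutation p = 0.3), since control replicate 3, at 0.815, lay above BafA1 replicates 2 and 3, at 0.727 and 0.710.

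**Figure D4:**
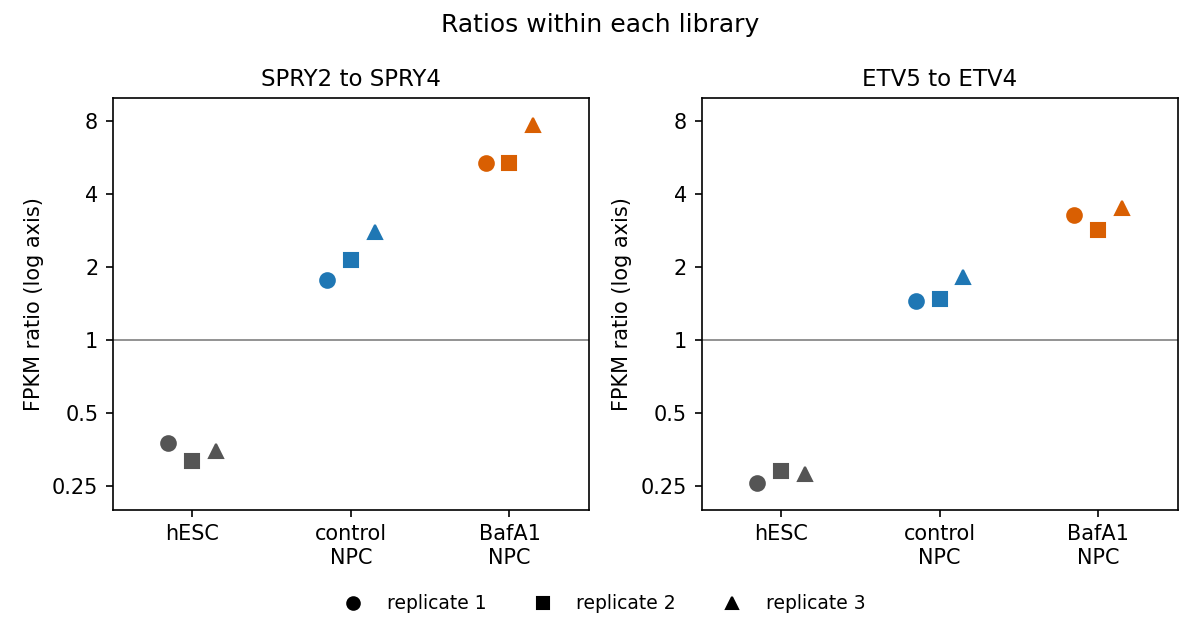
Ratio of FPKM within each library (y axis, log scale) of SPRY2 to SPRY4 (left) and ETV5 to ETV4 (right), with the line at a ratio of 1. All hESC libraries lie under 1 (0.259 to 0.378) and all NPC libraries above it (1.45 to 7.70), with BafA1 NPC above control NPC.

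By mean FPKM the order in hESC was FGFR1 (111), DUSP6 (94.0), ETV4 (60.7), SPRY4 (48.9), FGFR4 (22.5), SPRY2 (17.0), ETV5 (16.8), FGFR2 (12.1), SPRY1 (7.18) and FGFR3 (3.16). In that order only SPRY2 and ETV5 were neighbours whose libraries overlapped. In control NPC FGFR1 (35.6), DUSP6 (29.8) and FGFR2 (17.1) led, each overlapping the next. SPRY2 (7.85), ETV5 (6.42), FGFR3 (6.30), SPRY1 (5.15), ETV4 (4.15) and SPRY4 (3.65) followed, each again overlapping its neighbour, and FGFR4 (0.472) was lowest. In BafA1 NPC FGFR1 (32.4), DUSP6 (28.8) and FGFR2 (27.0) led with overlap, FGFR3 (13.2) and SPRY2 (11.4) came next and overlapped, and ETV5 (6.72) and SPRY1 (5.40) overlapped below them. ETV4 (2.08) and SPRY4 (1.84) overlapped near the end of the order, above FGFR4 (0.684). FGFR3, the lowest of the 10 in hESC, was thus the fourth in BafA1 NPC.

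Set directly against hESC, BafA1 NPC had 2 genes higher (FGFR2 and FGFR3), 7 lower and 1 not called (SPRY1), where 70.4% of all genes were called, 35.5% higher and 34.8% lower. No library of one group overlapped the other in any of the 10 genes, against 74.6% of all genes. FGFR2 was higher by 1.25 ± 0.25 (SE, edgeR adjusted p = 8.16e-04) and FGFR3 by 2.15 ± 0.25 (4.45-fold, adjusted p = 7.97e-06). SPRY4 was 25.0-fold lower (adjusted p = 1.08e-09) and ETV4 27.1-fold lower (adjusted p = 7.46e-10), while SPRY2 was 1.44-fold lower (adjusted p = 0.00295). SPRY1 had a log2 change of -0.31 (adjusted p = 0.114) and was called with GC and length trends removed (0.0443), in a fit of the 6 libraries alone (0.0212) or without control replicate 3 (0.0347), with up to 0.332 over the alternatives.

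The rest of the pathway is given from 6 lists of 124 genes, whose counts are to be read against the 64.5% (33.0% higher, 31.6% lower) and 41.5% (20.8% and 20.7%) of all genes called in the first and second comparison. Of 22 FGF ligands 17 could be tested. In control NPC against hESC 5 rose and 7 fell (70.6% called, median log2 change -0.20), and with a minimum of 1 CPM in 3 libraries 3 rose and 4 fell. FGF2, the factor that supports pluripotency, fell from 75.1 ± 8.96 to 23.0 ± 1.01 CPM (SD, n = 3; -1.71 ± 0.11 SE, edgeR adjusted p = 4.96e-08). FGF10, a secreted ligand mainly of FGFR2, rose from 0.145 ± 0.0249 to 10.3 ± 0.253 CPM (6.12 ± 0.22, adjusted p = 4.52e-10). FGF14, which acts inside cells at sodium channels, and FGF9, a secreted ligand, rose by 3.63 and 3.14 from under 1 CPM.

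With BafA1 3 ligands rose and 3 fell, 35.3% where 41.5% of all genes were called (median 0.21, or 0.0 with genes without counts at their bound). FGF10 was at 26.7 ± 5.28 CPM in BafA1 NPC, above control NPC (1.37 ± 0.14 SE, edgeR adjusted p = 3.68e-05). FGF11 rose from 60.7 ± 11.2 to 161 ± 17.8 CPM (1.41 ± 0.15, adjusted p = 4.61e-05) and FGF13 by 0.27, while FGF12 fell by 0.53 (adjusted p = 0.0129); these 3 belong to the intracellular group that does not act through the receptors. The ligands that fell numbered 0 without control replicate 1, 1 without hESC replicate 2 or 3, control replicate 2 or BafA1 replicate 1 or 3, 5 without control replicate 3 and 6 under library size alone. FGF2 was at 21.4 ± 2.11 CPM in BafA1 NPC.

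Of 19 co-receptors, FGF-binding proteins and receptor-proximal adaptors 15 could be tested. Upon differentiation 7 rose and 4 fell (73.3% called, median 0.29). The FGFR-binding membrane proteins FLRT2 and FLRT3 rose by 4.59 ± 0.19 and 5.37 ± 0.26 (SE), to 84.5 ± 8.15 and 90.1 ± 30.9 CPM (SD, n = 3), and ANOS1, a matrix protein that binds FGFR1 and heparan sulfate, fell from 270.1 ± 18.7 to 8.08 ± 2.01 CPM. With BafA1 2 rose and 5 fell (46.7% called, median -0.02), and 1 rose with limma on log2(FPKM + 1). FLRT2 fell by 1.18 ± 0.16 (SE), the FGF carrier FGFBP3 by 0.82 ± 0.13 and the RAS exchange factors SOS2 by 0.67 ± 0.09 and SOS1 by 0.59 ± 0.11, with edgeR adjusted p-values of 1.54e-04, 5.57e-04, 1.65e-04 and 0.00122.

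In the cascade from RAS to ERK (18 genes, all tested) 4 rose and 5 fell upon differentiation (50.0% called, median -0.03), but 9 rose with GC and length trends removed. The scaffold KSR2 fell by 3.56 and MAP2K1, the gene of MEK1, by 0.75. The scaffold LAMTOR3 rose by 1.30 and the ERK substrate kinase gene RPS6KA3 by 1.06. With BafA1 7 rose and 3 fell (55.6% called, median 0.10). RRAS, a relative of RAS, rose from 12.6 ± 1.16 to 41.6 ± 5.96 CPM (SD, n = 3; 1.72 ± 0.14 SE, edgeR adjusted p = 1.18e-05), MAP2K1 by 0.78, MAP2K2 by 0.73 and MAPK3, the gene of ERK1, by 0.54. The balance depended on scaling and on single libraries: with limma on log2(FPKM + 1) 4 rose and 7 fell, and none fell without control replicate 1 or 2 or BafA1 replicate 2.

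Of 21 other feedback inhibitors of ERK signalling 11 fell and 6 rose upon differentiation (81.0% called, median -0.40). TRIB1, a pseudokinase, fell by 2.82, the ERK phosphatase gene DUSP5 by 2.66 and ERRFI1, an inhibitor of the EGF receptor, by 2.68, while the phosphatase gene DUSP4 rose by 1.31, from 14.1 ± 0.648 to 35.1 ± 6.22 CPM (SD, n = 3). With BafA1 6 rose and 2 fell, 38.1% where 41.5% of all genes were called (median 0.01). DUSP8, which prefers JNK and p38, rose from 1.93 ± 0.575 to 11.96 ± 2.83 CPM (2.64 ± 0.24 SE, edgeR adjusted p = 1.93e-05), DUSP1 from 9.63 ± 0.76 to 36.4 ± 11.5 CPM (1.92 ± 0.19, adjusted p = 2.70e-05), DUSP9 by 2.24 and ERRFI1 by 0.96. IL17RD (Sef), an inhibitor that sits with FGF receptors at the membrane and was named after its values had been seen, was at 232 ± 10.4 CPM in hESC, 109 ± 25.2 in the control NPC and 64.5 ± 2.84 in BafA1 NPC (-0.75 with BafA1, adjusted p = 0.0012). The inhibitors that rose numbered 3 to 8 over the alternatives, with 3 for limma on log2(FPKM + 1) without a filter. Those that fell numbered 1 without hESC replicate 1 or 2, control replicate 1 or 2 or BafA1 replicate 2, and 4 with GC and length trends removed.

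Among 24 other genes tied to transcription downstream of ERK, targets and regulators alike, 13 fell and 6 rose upon differentiation (79.2% called, median -0.45). With GC and length trends removed 7 fell. MYC fell from 72.4 ± 3.38 to 5.78 ± 1.20 CPM (SD, n = 3; -3.64 ± 0.15 SE, edgeR adjusted p = 1.30e-09), IER2 by 2.43 and ETV1, the third PEA3 factor, by 1.57, while the ephrin receptor gene EPHA4 rose by 2.04. With BafA1 14 rose and 3 fell (70.8% called, median 0.62). JUN rose from 16.6 ± 1.37 to 116 ± 44.5 CPM (2.80 ± 0.25, adjusted p = 1.93e-05), MYC to 26.9 ± 3.15 CPM (2.21 ± 0.14), IER3 by 1.84 and KLF10 by 1.06. ETV1, named here after its values had been seen, fell from 35.3 ± 3.08 to 22.3 ± 2.49 CPM (-0.66), in the direction of ETV4. The genes that fell numbered 1 without control replicate 1 or 2 or BafA1 replicate 2 or 3, and 5 with GC and length trends removed.

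Heparan sulfate is made and carried by the 20 genes of the last list, of which 13 rose and 2 fell upon differentiation (75.0% called, median 0.49). The proteoglycan gene SDC2 rose by 2.86 ± 0.09 (SE), the sulfatase gene SULF2 by 2.60 ± 0.14 and the sulfotransferase gene HS2ST1 by 1.34 ± 0.09, while the glypican gene GPC4 fell by 1.44 ± 0.10. With BafA1 5 rose and 7 fell (60.0% called, median -0.16). GPC4 rose by 1.11 ± 0.10 and GPC6 by 0.76 ± 0.14, while SDC1 fell by 1.36 ± 0.14 and the sulfotransferase gene NDST1 by 0.69 ± 0.13. Those that rose numbered 3 without BafA1 replicate 3 and 2 with limma on log2(FPKM + 1), and those that fell numbered 4 without control replicate 1.

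Genes of the most similar pattern were sought among 11752 genes of at least 5 CPM, by the root mean square difference of log2 CPM over the 9 libraries after each gene's mean was removed. The gene nearest to SPRY4 was ETV4 itself (0.0854), ahead of PMAIP1 (0.174) and LAMC3 (0.197). SPRY2 was nearest to SERINC2 (0.0859), GRAMD1A (0.101) and REEP6 (0.101). FGFR3 was nearest to HSD17B8 (0.154), TTYH2 (0.201) and COL21A1 (0.219), and FGFR4 to B3GNT7 (0.175), HMCN2 (0.197) and ITPR3 (0.206). All of these share the same 9 libraries, and most of the pattern is the step from hESC to NPC.

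Markers of other cell types moved with the groups too. Pluripotency markers summed to 5662 to 5977 CPM in hESC, 619 to 671 CPM in the control NPC and 840.2 to 910 CPM in BafA1 NPC. In both NPC groups LIN28A made up most of the sum, and TDGF1 was at 0 in BafA1 NPC as in control NPC. Neural progenitor markers summed to 8803 to 11830 CPM in BafA1 NPC, and VIM made up most of it. PAX6 was at 0 in hESC, at 0.193 to 0.490 CPM in the control NPC and at 0.585 to 1.60 CPM in BafA1 NPC. In BafA1 NPC against control NPC 4 of these 8 markers rose (SOX2, PAX6, VIM and HES5). SOX1 fell (log2 change -0.67, edgeR adjusted p = 0.0202), and NES, MSI1 and FABP7 were not called. Floor plate markers summed to 474, 562 and 790.3 CPM in control NPC and 782, 633 and 563 CPM in BafA1 NPC. Of these 8 markers 2 rose with BafA1, FOXA2 among them (log2 change 0.68, edgeR adjusted p = 2.13e-04), and 1 fell. Markers of mesoderm and mesenchyme summed to 81.6 to 86.3, 1066 to 1797 and 2016 to 2239 CPM in hESC, control NPC and BafA1 NPC, mostly COL1A1. Of the 7 that could be tested, 3 rose with BafA1 (COL1A1, MESP1 and PDGFRB) and 2 fell. These were LUM (log2 change -1.67, edgeR adjusted p = 3.13e-05) and DCN (-3.45, adjusted p = 2.62e-04). Neuron markers were at 224 to 240.3, 616 to 657 and 651 to 691 CPM. Sums were 146 to 155, 86.0 to 115 and 105 to 137 CPM for neural crest (FOXD3 at 0 in both NPC groups), 5.24 to 5.52, 11.1 to 21.8 and 20.7 to 24.5 CPM for endoderm, and 74.9 to 76.0, 79.2 to 97.3 and 76.2 to 90.9 CPM for glia. Single glial markers moved in both directions under that sum. Of the 8, 3 rose and 4 fell upon differentiation, and 3 rose and 1 fell with BafA1. TTR made up most of the endoderm sum in both NPC groups, and its change with BafA1 was not called (edgeR adjusted p = 0.0794). Of the 5 endoderm markers that could be tested, 0 rose with BafA1 and 1 fell (CER1, log2 change -2.56, adjusted p = 0.00268). The part of cell make-up in the changes of the 10 genes was not tested.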

How the data were processed

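Per the labels' protocols, a stranded kit for mRNA was used for the 9 libraries. The submitters' processing notes name Trimmomatic and GRCh38. The aligner and counter were not given in the sources used here. Per the file headers, the authors deposited raw counts per gene as whole numbers, and FPKM values per gene and library, per the file headers. Columns were matched to samples by name, those named control by elimination to untreated NPC, and 0 columns were unused. Where the counting could split reads between overlapping genes, a level is uncertain: DUSP6 overlaps an unnamed locus in GENCODE v29.

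Counts were tested with edgeR 4.0.16 in R 4.3.3: filterByExpr (20685 genes kept), TMM scaling, a quasi-likelihood fit of all 9 libraries with 1 term per group, two-sided tests and Benjamini-Hochberg adjustment over all genes tested. A gene was called at an adjusted p under 0.05. The 20 alternatives per comparison were DESeq2's size factors in edgeR, library size alone, GC and length trends removed (17491 genes with values), DESeq2 1.42.0, limma 3.58.1 on log2(FPKM + 1) and log2(FPKM + 0.1) with a mean of at least 0.1 FPKM, and on all genes, no filter on counts, at least 1 CPM in 3 libraries, only the 6 libraries compared, the replicate number as a block and each of the 9 libraries left out. Fold changes from limma are on the log2(FPKM + pseudocount) scale, which understates low genes. The script was tested on simulated data.

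The 10 genes, the lists and the tests were chosen with earlier results of these data known. The text names the 10 genes, up to 4 genes per list and comparison with the smallest adjusted p (mean of the higher group at least 1 CPM), the leading markers, and the 3 genes nearest in pattern to each of the 4 members with the smallest adjusted p with BafA1. The 124 list entries all matched a gene of the table. Totals of 43124679 to 69703791 counts set the precision, and 3 counts were taken as the floor, for counting error only. Same-numbered libraries did not deviate together (correlations of -0.0554 to 0.0877), and the numbers were not used as pairs.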

Additional observations from a re-analysis of the deposited data

How the results depend on the processing

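Of 600 settings of single members (10 genes, 3 comparisons, 20 alternatives), 566 kept direction and call, 15 lost a call, 6 gained one and 13 changed sign, all 13 in values that were not called. The sign changes were in BafA1 NPC against control NPC. FGFR1 was at 0.0666 without control replicate 1, but at -0.1041 under library size alone, -0.1032 with GC and length trends removed, -0.1312 with limma on log2(FPKM + 1) with and without the filter, -0.1347 with log2(FPKM + 0.1), -0.0436 without control replicate 3 and -0.0046 without BafA1 replicate 1. DUSP6 was at 0.2335 without BafA1 replicate 1, but at -0.0347 under library size alone, -0.0544 with limma on log2(FPKM + 1) with and without the filter, -0.0562 with log2(FPKM + 0.1), -0.0016 without control replicate 3 and -0.0442 without BafA1 replicate 3. With limma on log2(FPKM + 1) without a filter, 0 of the 10 genes rose in control NPC against hESC, and 3 were called and 1 rose with BafA1; with the filter 2 rose with BafA1. With each library left out in turn, 1 to 2 of the 10 genes rose in control NPC against hESC and 9 to 10 were called, and 5 to 7 were called and 3 to 5 rose with BafA1. With the replicate number as a block no call of a member changed, 6 were called with BafA1 and FGFR2 was at 0.82 (adjusted p = 0.0354). The numbers are labels only, and 2 of 9 libraries correlated best with their own number. Over all genes the calls with BafA1 split into 4309 higher and 4277 lower, but 3104 and 5681 under library size alone (median of all genes -0.12), 2877 and 5573 with limma on log2(FPKM + 1), 2876 and 5582 with log2(FPKM + 0.1) and 1928 and 4389 without its filter. In control NPC against hESC they split into 6816 and 6529, and 7640 and 5681 under library size alone (median 0.14). For the lists the counts with BafA1 that moved most were those of FGF ligands that fell (3, 0 to 6 over the alternatives) and of the RAS to ERK cascade that fell (3, 0 to 7). The cause of these differences was not tested.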
